A study of Rattus norvegicus with 16 samples.

Results

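The natriuretic peptide genes Nppa (ENSRNOG00000008176) and Nppb (ENSRNOG00000008141) were followed in RNAseq libraries from rat hearts. They were chosen by their Ensembl identifiers, which makes 2 genes of the 32545 listed, and both passed the filter on low counts. The hearts came from male Wistar rats, 10 given weekly intravenous injections of saline (saline) and 6 given 5 weekly intravenous injections of 3 mg per kg doxorubicin (DOX), which adds up to 15 mg per kg (DOX high). Each library was made from a piece of about 30 mg of the frozen heart of 1 rat, and the sources used here do not name the chamber it was cut from. For saline the labels give 5 injections and the paper's methods give 6, a difference of 1. The question addressed here is whether the level of these 2 transcripts differed between DOX high and saline hearts.

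Nppa encodes atrial natriuretic peptide and Nppb encodes brain natriuretic peptide, hormones that heart muscle cells release when the wall of the heart is stretched. Both are made as precursors and cut to a ring-shaped peptide, which binds the guanylyl cyclase receptor Npr1, raises cyclic GMP, relaxes vessels and promotes the loss of salt and water. In the healthy adult heart Nppa is made mainly in the atria, and both genes are known to be switched on again in the ventricles of hypertrophied or failing hearts. The level of brain natriuretic peptide in blood is a common clinical marker of heart failure.

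The genes are neighbours in the RefSeq annotation of the rat assembly GRCr8, where Nppb lies before Nppa on the same strand of chromosome 5 with 0 annotated genes between them. Their upstream sequences are shown because the same heart transcription factors, among them GATA4, are known to act on both promoters. They were read from RefSeq sequence of GRCr8, a later build than the Rnor_6.0 used for the counts. Capitals mark GATAA, the core letters of a GATA factor site, searched on both strands.
Nppa, chr5:163711934-163712183, plus strand: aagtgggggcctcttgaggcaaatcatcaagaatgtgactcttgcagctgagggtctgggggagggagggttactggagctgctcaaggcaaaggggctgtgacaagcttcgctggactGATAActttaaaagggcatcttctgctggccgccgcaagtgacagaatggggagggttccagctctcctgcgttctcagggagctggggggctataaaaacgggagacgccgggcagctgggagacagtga
Nppb, chr5:163699758-163699954, plus strand: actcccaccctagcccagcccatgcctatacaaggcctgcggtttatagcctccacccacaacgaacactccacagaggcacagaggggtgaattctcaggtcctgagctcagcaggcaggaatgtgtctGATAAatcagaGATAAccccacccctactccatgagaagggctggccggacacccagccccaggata
The Nppa window ends 1 base before the transcript start, and the Nppb window ends before the first of the starts that RefSeq lists. GATAA occurred once in the Nppa window, 131 bases before the start, and at 2 places in the Nppb window, 120 and 109 bases before the RefSeq start of the promoter table. Among all 33469 rat promoter windows of the table, 23.5% held these letters in the first 250 bases and 19.9% in the first 197, the lengths of the Nppa and Nppb windows. The letters CATTCC (MCAT element) were found on the minus strand of the Nppb window and not in the Nppa window (9.58% of windows of 197 bases and 12.1% of 250). The letters AAGTG, part of an NK2 factor site, were found at 2 places in the Nppa window and not in the Nppb window (40.6% of windows of 250 bases and 33.5% of 197). None of these motifs overlap each other, and short matches of this kind are a description of the letters only.

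Library totals ran from 13784896 to 16842418 fragments in saline and from 15369246 to 18025615 in DOX high hearts. The smallest count of either gene was 945, which is a counting error of 3.25%, so the spread between rats and not the depth limited these measurements. Levels are given as CPM (counts scaled to library size) after TMM scaling for comparisons between rats, and as TPM (transcript abundance after allowing for gene length, scaled to one total) for comparisons between the 2 genes. Pearson's r was taken between pairs of libraries over all tested genes but Nppa and Nppb, and its median over libraries is given here. Only 1 library, saline rat 37, correlated better with the other group: 0.973 with the DOX high and 0.946 with the other saline libraries. DOX high rat 32 had the lowest such correlation with its own group (0.918) and the highest TMM factor (1.36). Both were kept in their labelled groups, and results that rest on them are also given without them.

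Nppb was higher in most DOX high hearts than in most saline hearts, but the difference did not pass the adjusted threshold when all 16 rats were compared. In saline hearts the Nppb level ran from 61.5 CPM in rat 8 over a median of 183 CPM to 565 CPM in rat 37. In DOX high hearts it ran from 254 CPM in rat 32 over a median of 479 CPM to 561 CPM in rat 30. All 6 DOX high rats lay above the saline median, and 8 of the 10 saline rats lay below the lowest DOX high rat. The other saline rats, 6 and 37, had 372 and 565 CPM, so the groups overlapped. In the plot of levels by rat 5 of the DOX high hearts form a narrow band above all saline hearts but rat 37, with rat 32 below them.

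**Figure D1:**
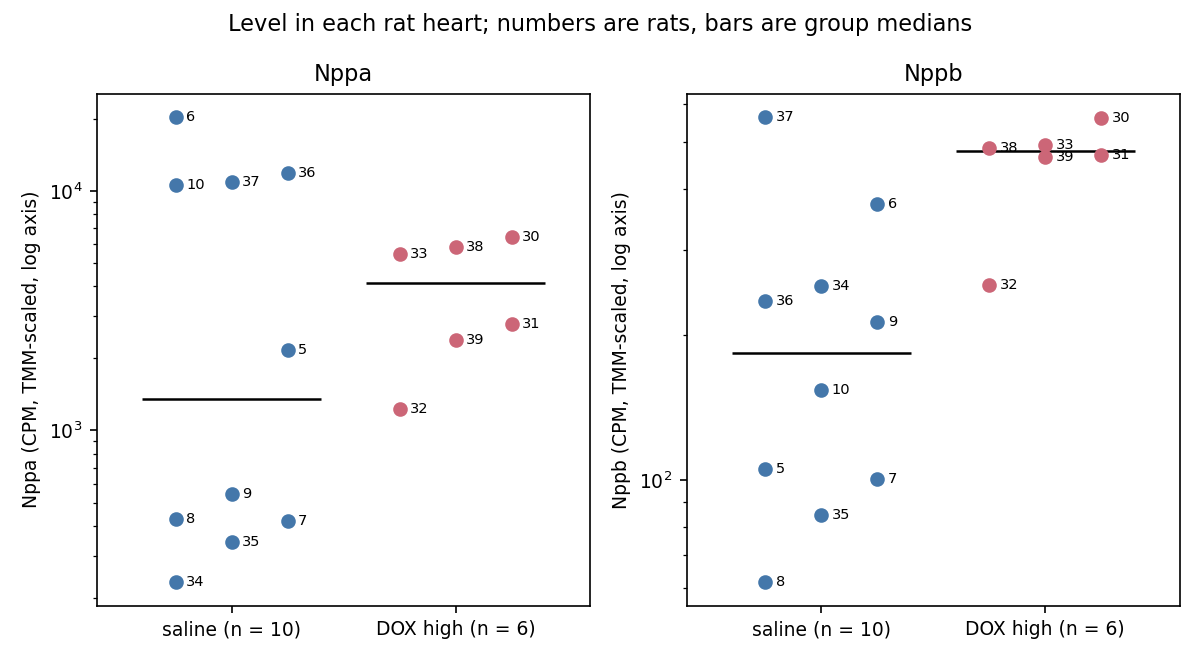
Level of Nppa and Nppb in each heart, in TMM-scaled CPM on a log axis, for 10 saline and 6 DOX high rats (points, numbered by rat; bars, group medians). For Nppb all 6 DOX high rats lie above the saline median of 183 CPM, whereas for Nppa the DOX high rats lie between a low and a high set of saline rats.

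The mean Nppb level was 214 ± 156 CPM (SD, n = 10) in saline and 456 ± 105 CPM (SD, n = 6) in DOX high hearts. The log2 fold change was 1.09 (standard error 0.39, 95% confidence interval 0.26 to 1.92), with an unadjusted p of 0.0131 and an adjusted p of 0.0997 in edgeR's quasi-likelihood test with Benjamini-Hochberg adjustment over 13607 genes. As background, 6.25% of all genes tested passed the adjusted threshold of 0.05 and 4.01% passed it as higher in DOX high, and 13.1% were higher with an unadjusted p under 0.05. On TPM the means were 460 ± 390 in saline and 914 ± 96.5 in DOX high hearts, with DOX high rats between 727 and 1007 TPM and saline rats between 108 and 1248 TPM.

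Saline rat 37, which had the highest Nppb level of all 16 hearts, changed this call. Without it the log2 fold change was 1.38 (standard error 0.34) and the adjusted p was 0.0136 in the edgeR test, where 7.90% of the genes tested were called higher. Leaving out the highest saline heart had to widen the difference, so this call is not counted as support. This call was not kept within rats 30 to 39 without rat 37 (adjusted edgeR p = 0.104) or with the run of animal numbers as a covariate (adjusted edgeR p = 0.194). In the other edgeR fits that each left out 1 rat the adjusted p lay between 0.0806 and 0.164. Saline rat 37 and DOX high rat 32 had the highest saline and the lowest DOX high Nppb level. Leaving out both therefore had to widen the difference, and that fit was chosen after the values were seen. It gave a log2 fold change of 1.505 and an adjusted edgeR p of 0.00909, with 7.46% of genes called higher, and is not counted as support either. DESeq2 with all rats gave a log2 fold change of 1.08 and an adjusted p of 0.0494, just past the threshold, with 6.18% of its genes called higher. The mean of log2 CPM was 8.79 ± 0.40 in DOX high (SD, n = 6) and 7.43 ± 1.01 in saline hearts (SD, n = 10), a difference of 1.36 with a two-sided exact permutation p of 0.00837, which is for a single gene and not adjusted over all genes.

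**Figure D2:**
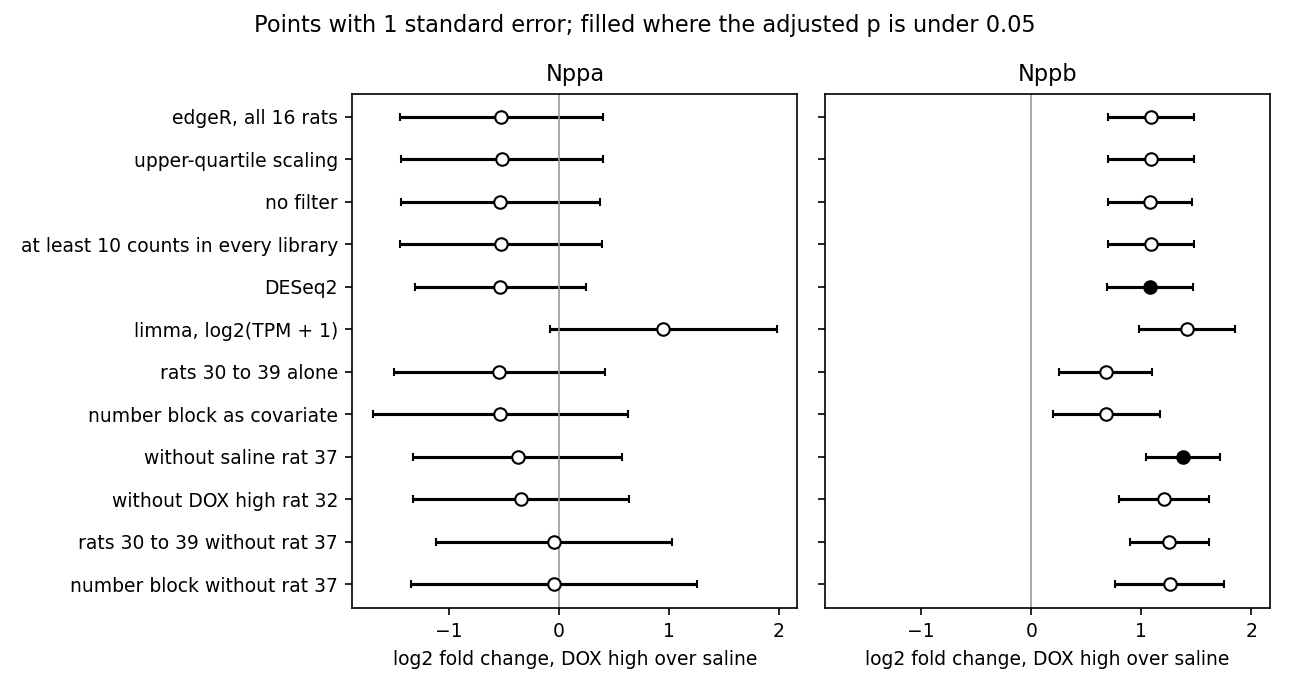
Log2 fold change of Nppa and Nppb between DOX high and saline hearts under each way of fitting (points; bars, 1 standard error; filled points, adjusted p under 0.05). Nppb was above 0 in each fit shown, with filled points only for DESeq2 and without saline rat 37, whereas for Nppa the sign differed between the edgeR and the limma fit (-0.52 and 0.95) and no point is filled. Leaving out rat 37, the saline heart with the highest Nppb, had to widen the Nppb difference.

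Nppa did not separate the groups, and its level differed far more among saline hearts than between groups. It ran from 232 CPM in saline rat 34 to 20358 CPM in saline rat 6, a range of 87.6-fold, with a saline median of 1350 CPM. Saline rats 34, 35, 7, 8 and 9 had 232, 342, 420, 426 and 543 CPM. Saline rats 10, 37, 36 and 6 had 10542, 10839, 11808 and 20358 CPM, and rat 5 had 2157 CPM. The saline hearts thus fell into a low set, a high set and 1 heart in between.

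In DOX high hearts Nppa ran from 1224 CPM in rat 32 over a median of 4107 CPM to 6415 CPM in rat 30, a range of 5.24-fold. Only 1 saline rat, rat 5, lay within the DOX high range, while 5 lay below it and 4 above it. The mean was 5767 ± 7113 CPM (SD, n = 10) in saline and 4009 ± 2147 CPM (SD, n = 6) in DOX high hearts, whereas the DOX high median was 3.04 times the saline median. So the direction depended on the summary used, and none is claimed here. The log2 fold change was -0.52 (standard error 0.92, 95% confidence interval -2.48 to 1.43) with an adjusted p of 0.769 in the edgeR test, and the interval holds changes of more than 2-fold in both directions. On the mean of log2 CPM the DOX high hearts were higher, 11.75 ± 0.94 (SD, n = 6) against 10.85 ± 2.56 (SD, n = 10), a difference of 0.90 with a two-sided exact permutation p of 0.422.

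The spread of these genes was large against that of other genes. The SD of log2 CPM among saline rats was 2.56 for Nppa, at place 25 of the 13607 genes tested, and 1.01 for Nppb, where the median gene had 0.289. Among DOX high rats the SD was 0.94 for Nppa and 0.40 for Nppb, against a median of 0.27. The biological coefficient of variation that edgeR estimated over both groups was 1.11 for Nppa and 0.529 for Nppb, above those of 99.1% and 91.3% of genes, with a median of 0.216. Whether the spread differed between the groups was not tested.

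The hearts with high Nppa also stood out in the rest of their transcriptome. Saline rats 6, 10, 36 and 37, the 4 with the highest Nppa, had median correlations of 0.942 to 0.951 with the other saline libraries over all tested genes but Nppa and Nppb, and the other 6 saline rats had 0.972 to 0.974. A median over the other saline libraries favours the larger set of hearts. The 4 hearts were also not alike: rat 37 had 0.973 with the DOX high libraries, whereas rats 6, 10 and 36 had 0.943, 0.931 and 0.941. Among the 8542 other genes whose log2 CPM averaged 3 or more, 139 (1.63%) had a Pearson r beyond 0.9 in size with Nppa over the 10 saline rats, 43 positive and 96 negative. For Nppb it was 6 genes (0.0702%), 5 positive and 1 negative. These are descriptions over 10 libraries that share their scaling, and in saline rat 6 fragments of Nppa alone were 2.44% of all counts. TMM factors were 1.14 or more in saline rats 6 and 36, against 0.885 to 1.04 in the other saline rats, and their part in these correlations was not tested. In pieces of whole tissue, fewer cells of a type and less RNA per cell cannot be told apart.

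**Figure D3:**
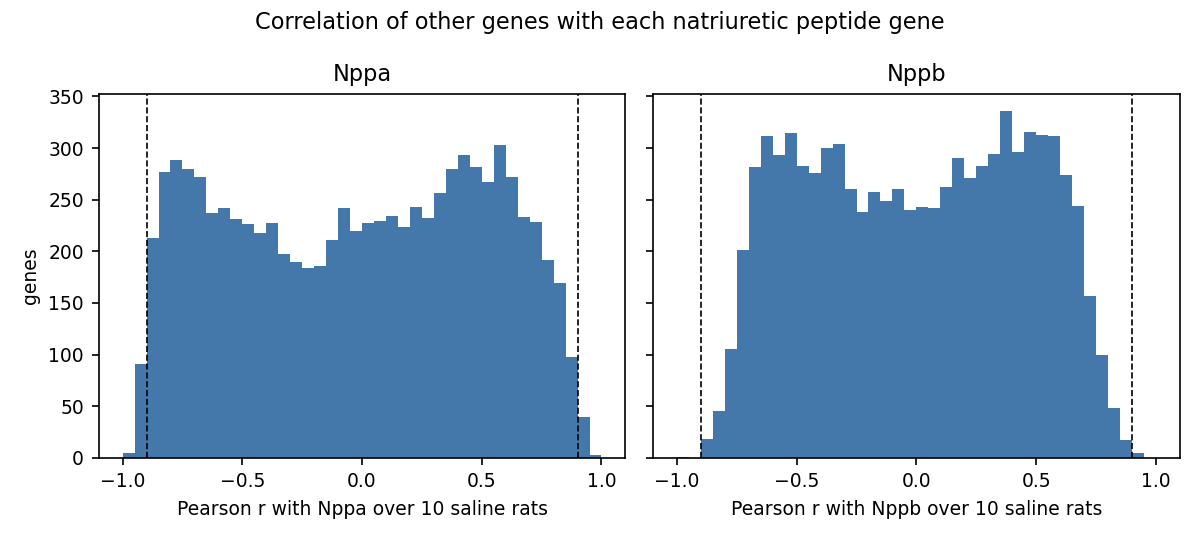
Number of genes by their Pearson r with Nppa (left) and Nppb (right) over the 10 saline rats, for 8542 genes whose log2 CPM averaged 3 or more (dashed lines, r of -0.9 and 0.9). Beyond the lines lie 139 genes for Nppa and 6 for Nppb.

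Over all 16 libraries the gene most like Nppa was ENSRNOG00000019482 (r = 0.92, and 0.92 with the group means removed), which ran from 12.7 to 116 CPM with its maximum also in saline rat 6. The gene that ran most against Nppa was ENSRNOG00000040257 (r = -0.90, and -0.89 with the group means removed). For Nppb these were ENSRNOG00000024104 (r = 0.90 and 0.86), within only 18.6 to 25.8 CPM, and ENSRNOG00000009227 (r = -0.86 and -0.74). Nppb was not the nearest partner of Nppa: with an r of 0.60 it stood at place 489 by r with Nppa, and Nppa stood at place 616 by r with Nppb. The files give no names for the 4 genes listed here.

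The 2 genes were compared within each heart by their TPM, which allow for gene length. Nppa was the more abundant in all DOX high hearts, by 3.65-fold in rat 32 to 9.05-fold in rat 38, with a median of 6.40-fold. In saline hearts the ratio of Nppa to Nppb ran from 0.699 in rat 34, the only heart with more Nppb than Nppa, to 52.0 in rat 10, with a median of 9.90. Ranked by TPM among all genes, Nppa stood at place 15 to 35 in DOX high hearts and at place 3 to 274 in saline hearts, and Nppb at place 88 to 147 and 70 to 666. The mean log2 ratio of Nppb to Nppa counts was -2.96 ± 0.62 (SD, n = 6) in DOX high and -3.42 ± 2.12 (SD, n = 10) in saline hearts. The difference of 0.47 was smaller than the SD among saline rats. DOX high against saline gave p = 0.607 in a two-sided exact permutation test of the group means. Within rats 30 to 39 the difference was -0.0036 (two-sided exact permutation test, p = 1).

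Over the 6 DOX high hearts the 2 genes varied together on CPM, but not past 0.05 without rat 32 or on TPM. Pearson's r of log2 CPM was 0.87 over 6 hearts, with an exact two-sided permutation p of 0.00278 and an adjusted p of 0.0111 (Benjamini-Hochberg over 4 correlations), and Spearman's rho was 0.94 (exact permutation p = 0.0167; adjusted p = 0.0333). Rat 32 was lowest in both genes, and it had the highest TMM factor of all libraries (1.36), which lowers both scaled levels. Without the 2 rats farthest from the median of Nppa, 30 and 32, r was 0.96. That value is over only 4 hearts and is a description. Without rat 32 alone r was 0.75 (exact permutation p = 0.0917), and without each other rat alone the exact permutation p lay between 0.00833 and 0.0167. These fits hold 5 hearts, fewer than the 6 taken as the least for a correlation, and are a description. Over all 6 hearts on log2(TPM + 1) r was 0.72 (exact permutation p = 0.0556). The call was therefore lost on TPM and did not hold in the description without rat 32, whereas on CPM without TMM r was 0.81 (exact permutation p = 0.00417). Among the 10 saline hearts r was 0.60 (permutation test, p = 0.0697; adjusted p = 0.0929) and rho was 0.54 (permutation test, p = 0.114; adjusted p = 0.114), and r was 0.48 without rats 6 and 36. The relation was past 0.05 in saline hearts on log2(TPM + 1) (r = 0.69, permutation p = 0.0322), on CPM without TMM (r = 0.66, permutation p = 0.0420) and without rat 34 (r = 0.76, exact permutation p = 0.0215). Saline Nppa fell into a low set of 5 and a high set of 4 hearts, each below the 6 hearts taken as the least for a correlation, and the relation was not tested within either set. The saline values are therefore a description, and so is the r of 0.60 over all 16 libraries given above, for which no test was made.

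**Figure D4:**
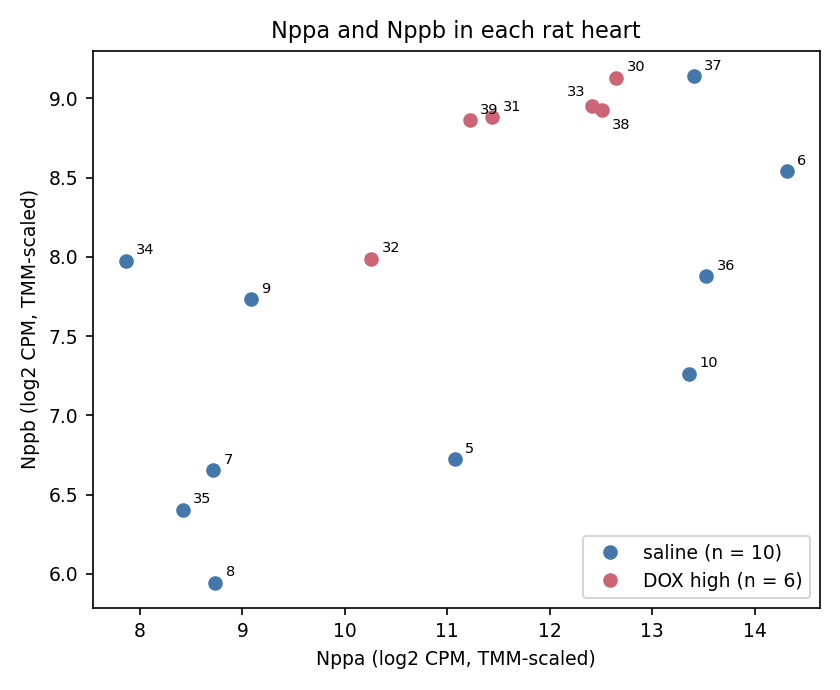
Nppb against Nppa in each heart, both in TMM-scaled log2 CPM, for saline and DOX high rats (points, numbered by rat). In DOX high rats Nppb lies between 8.87 and 9.13 log2 CPM except for rat 32 at 7.99, and the saline rats spread widely along both axes.

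The rats are numbered 5 to 10 (6 saline) and 30 to 39 (4 saline and all DOX high). By the paper's reporting summary they are running numbers given to the animals whatever their treatment. By the same source, whole cages of weight-matched rats, and not single rats, were randomized to treatment. The cage of each rat is not given, so all tests here take the rats as independent, and a share of cage in the differences was not tested. The numbers in the library names are contiguous within each group, and all DOX high libraries come after all saline ones. Whether they reflect an order of processing is not stated. Such an order could not be told apart from treatment, also within rats 30 to 39. The sources used here do not say whether the 2 runs of animal numbers were treated or processed apart. Between the saline rats of these runs neither gene passed the test, in which 0 of 13413 genes did (0%; 591 had an unadjusted p under 0.05 in edgeR). The log2 fold change of rats 34 to 37 over rats 5 to 10 was 0.77 for Nppb (standard error 0.55, adjusted p = 0.918 in the edgeR test), from 165 to 280 CPM. It was 0.02 for Nppa (standard error 1.37, adjusted p = 0.998 in the edgeR test), from 5639 to 5726 CPM.

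Within rats 30 to 39 alone the log2 fold change of Nppb between DOX high and saline was 0.68 (standard error 0.42, adjusted p = 0.491 in the edgeR test), and with the number run as a covariate it was 0.68 (adjusted p = 0.543). Without saline rat 37 the log2 fold change was 1.26 in both fits. For Nppa they were -0.54 and -0.53 with all rats and -0.04 in both fits without rat 37. None of these 4 fits called either gene. With all rats they called 0 of 13730 genes (0%; 1891 had an unadjusted p under 0.05 in edgeR) and 2 of 13607 (0.0147%), and without saline rat 37 they called 307 of 13946 (2.20%) and 347 of 13530 (2.56%). Of the saline rats of this run, rats 35, 36 and 34 had 84.7, 235 and 252 CPM of Nppb, all below the 254 CPM of the lowest DOX high heart, and rat 37 had 565 CPM.

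Other genes of the pathway, such as the receptors Npr1 to Npr3 and the processing enzyme Corin, and markers of atrial and ventricular muscle are not reported, because 0 of the 32545 identifiers were paired with a symbol by the gene table used. The atrial share of each piece of tissue was therefore not tested.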

How the data were processed

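Per the labels and the paper's methods, the authors extracted RNA from snap-frozen heart tissue, enriched polyadenylated transcripts, made strand-specific libraries and sequenced read pairs. The authors aligned them to Rnor_6.0 with Hisat2 and counted fragments on the exons of the Ensembl annotation with featureCounts (Subread 1.5.0) at default settings, which do not use strand. The deposited counts are unnormalized whole numbers of fragments, and the deposited TPM values were made from them by the authors. Groups came from the sample labels, and 1 rat gave 1 library. The lowest chi-square per degree of freedom between libraries of a group was 13.1 over 60 pairs, so none was a repeat of another of its group. Pairs of libraries from different groups were not compared in this way.

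The whole count table was tested with edgeR 4.0.16 in R 4.3.3 (filterByExpr, TMM, glmQLFit and glmQLFTest, no covariates, Benjamini-Hochberg over 13607 genes, threshold 0.05). Standard errors were derived from each log2 fold change and its F statistic. The same code was tested on simulated data. Log2 CPM used a prior count of 2, and the ratio a prior count of 0.5. Single values were compared by exact permutation over all 8008 divisions of the rats, and the correlations by all pairings or, for 10 rats, 100000 random ones (Python 3.11.15, numpy 2.4.6). Alternatives were DESeq2 1.42.0, upper-quartile scaling, other filters, rats 30 to 39 alone, the number run as a covariate, limma 3.58.1 on TPM in log2 with pseudocounts of 1 or 0.1, other prior counts and leaving out each rat. The exact test of log2 CPM for each gene, the fits that left out rat 37 together with another change, and the scaling without Nppa were chosen after seeing the data.

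The named genes are Nppa and Nppb and, by r over the 16 libraries among genes averaging 3 or more log2 CPM, the genes most like and most unlike each, of which 1 each way per gene is given because identifiers have no names here. The members, lists and tests were chosen with earlier results of these data known.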

Additional observations from a re-analysis of the deposited data

Results flagged for a closer look

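Of 6 groups of values (log2 CPM of Nppa and of Nppb and the log2 ratio of their counts, each in saline and in DOX high hearts), 1 had a member lying well apart. Chance alone gives such a value in about 1 in 20 groups. It was the Nppb level of DOX high rat 32, 7.989 log2 CPM, with the next lowest DOX high heart at 8.865. This library had 6029 fragments of Nppb, 0.0338% of its counts, where the other DOX high libraries had between 0.0461% and 0.0519%, and its TMM factor of 1.36 lowers its scaled level further. The part of the scaling in this value was not tested.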

How the results depend on the processing

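Nppb was higher in DOX high hearts in each of its 29 alternatives, and 25 left it on the same side of the threshold. It passed with DESeq2 (log2 fold change 1.08), without saline rat 37 (1.38) and without saline rat 37 and DOX high rat 32 (1.505). Leaving out rat 37, the highest saline heart, alone or with rat 32, had to widen the difference, so neither fit is counted as support. The fit without both rats was chosen after the values were seen. The other change counted was the exact permutation test of mean log2 CPM (1.36), whose p is for 1 gene and unadjusted. The unadjusted p of the main edgeR fit (0.0131) was also under 0.05, so that test changed no call on a like measure. Without saline rat 37 Nppb did not pass within rats 30 to 39 or with the number run as a covariate (1.26 in both). Leaving out 1 rat gave log2 fold changes from 0.98 to 1.38. For Nppa the direction turned on the log scale, to 0.95 with limma on both log2(TPM + 1) and log2(TPM + 0.1) and 0.90 for mean log2 CPM; its other 26 alternatives were negative, from -0.71 to -0.06 on leaving out 1 rat, and none passed. The difference of the log2 ratio reversed within rats 30 to 39 (-0.0036) and ranged from 0.17 to 0.86 on leaving out 1 rat. Between the saline runs Nppa ranged from -0.58 to 1.06 on leaving out 1 rat, with 6 of 10 fits reversed, and Nppb from 0.18 to 1.18. The r of the 2 genes ranged from 0.75 to 0.93 in DOX high and from 0.51 to 0.76 in saline hearts on leaving out 1 rat. It was 0.72 in DOX high hearts and 0.69 in saline hearts on log2(TPM + 1), and 0.66 in saline hearts on CPM without TMM.

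The count of genes called was 851, and 1574 with DESeq2, 255 and 285 with limma on log2(TPM + 1) and log2(TPM + 0.1), 0 within rats 30 to 39 in edgeR (1891 had an unadjusted p under 0.05) and 2 with the number run as a covariate. Without saline rat 37 the last 2 became 307 and 347. With 1 rat left out the count lay between 345 (DOX high rat 38) and 1762 (saline rat 37), and it was 1766 without both saline rat 37 and DOX high rat 32. Leaving out saline rats 7, 8, 34 or 36 or DOX high rats 33 or 39 also moved it by over 1.5 times. The causes were not tested. No paired analysis was possible because no number is found in both groups. Counting did not use strand, which leaves antisense fragments mixed in. The pathway list and the cell type markers were not run, since identifiers had no names.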

Other observations

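Nppa was among the most abundant transcripts of some saline hearts. In saline rat 6 it had 42652 TPM and stood at place 3 of all genes, and in saline rat 34 it had 319 TPM. Rats 10, 36 and 37 stood at places 9, 8 and 9, and no DOX high heart placed it above 15. In saline rats 34 and 9 the Nppb level (252 and 213 CPM) was above the saline median while Nppa (232 and 543 CPM) was in the low set, whereas in saline rats 10 and 5 Nppb (153 and 106 CPM) was below the median while Nppa (10542 and 2157 CPM) was above its own. These 4 hearts were chosen after their values were seen. In the other 6 saline hearts both genes lay on the same side of their saline medians, above in rats 6, 36 and 37 and below in rats 7, 8 and 35.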
